A study of Mus musculus with 12 samples.

Results

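This comparison sets the latest doxycycline (DOX) array of Mbd3flox/- cells, taken at day 8, against the latest DOX array of Mbd3+/+ (WT) cells, taken at day 11. It rests on 2 of the 12 arrays of the series, 1 array a side. The iPSC array of each genotype served as the yardstick for what differs between the genotypes without DOX, which makes 4 arrays in all. WT day 11 was Mbd3+/+ embryonic fibroblasts (MEF) carrying a DOX-inducible transgene for Oct4, Sox2, Klf4 and Myc (OSKM), 11 days after DOX was added. The flox/- day 8 array was MEF of the same transgene design with a floxed and a deleted copy of Mbd3, 8 days after DOX was added. The WT iPSC and flox/- iPSC arrays were labelled as the pluripotent lines of those genotypes. All 4 were grown, per the labels, in N2B27 medium with serum replacement, LIF and 2 kinase inhibitors (2i) on irradiated DR4 feeder MEF. No label names a sort, an animal or a clone, so feeder cells, unreprogrammed cells and reprogrammed cells of a culture share an array. Genotype and day of DOX cannot be told apart within the pair, and with 1 array a side there is no replicate check. The values below describe these arrays and carry no error and no p-value.

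OSKM turn fibroblasts into induced pluripotent stem cells (iPSC). In this change the genes of the mesenchyme are switched off, epithelial genes come on, and the network around Nanog, Esrrb and Zfp42 comes on late. Mbd3 is a subunit of NuRD, a complex that joins nucleosome remodelling to histone deacetylation, and the series asks how its loss bears on reprogramming. Genes of the germ line are held off in most somatic cells by DNA methylation and by repressors that bind the E-box CACGTG, and some of them come on in pluripotent cells.

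Pluripotency markers were high on all 4 arrays. Of 8 pluripotency markers (among them Nanog, Pou5f1, Sox2, Esrrb and Zfp42), 8 were above the array median on WT day 11, flox/- day 8 and both iPSC arrays. Their mean log2 signal was 11.07 in WT day 11, 11.94 in flox/- day 8, 11.75 in WT iPSC and 11.92 in flox/- iPSC, against 5.15 in WT MEF and 4.95 in flox/- MEF. The 10 fibroblast and feeder markers separated the genotypes in both stages. Of these, 10 were above the array median in WT day 11 (mean 9.95) and 10 in WT iPSC (mean 9.38), but 3 in flox/- day 8 (mean 6.19) and 6 in flox/- iPSC (mean 6.28). WT iPSC thus carried fibroblast RNA, and each fibroblast gene below is to be read with this in view. WT ESC had a mean of 8.36, with Dcn (6.33 against 11.05) and Lum (4.36 against 8.91) far below WT iPSC, but Col1a1 (10.52 against 9.69), Col1a2, Thy1 and Pdgfrb above it. The part of feeder or unreprogrammed cells was not tested. A Y-linked gene also differed within WT and between the genotypes. Eif2s3y was 8.34 in WT day 11 and 5.02 in WT iPSC (WT MEF 5.73, WT ESC 9.20), while the 4 flox/- arrays lay between 9.78 (iPSC) and 10.70 (day 8). Eif2s3y was thus higher in flox/- by 4.33 in MEF, 2.36 late and 4.76 in iPSC. Kdm5d, also Y-linked, was higher by 1.49 late and 0.91 in iPSC. The X-linked gene Xist was 8.52 in WT day 11, 8.91 in flox/- day 8, 9.79 in WT iPSC and 7.15 in flox/- iPSC. The labels do not say whether WT day 11 and WT iPSC come from the same animals. The part of cell sex in the genotype differences, those in iPSC included, was not tested. Another 8 arrays give context, and the WT day 8 and WT ESC arrays among them came from an earlier series. The WT day 8 array has a title of 8 days and a source label of 4 days.

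The promoters printed next belong to 4 germline genes that were higher in flox/- day 8 and to Meox2, a homeobox gene of the mesenchyme that was lower there. They are shown because the E-box was common among the promoters of the first group. Each is 300 bases from RefSeq on GRCm38.p6, 250 before and 50 after the start of the gene, 5′ to 3′ on the strand of the gene, with the E-box CACGTG in capitals. The Hormad1 window is chr3:95559427-95559726 (+), Stag3 chr5:138280259-138280558 (+), Sycp3 chr10:88459337-88459636 (+), Dazl chr17:50293571-50293870 (-) and Meox2 chr12:37108290-37108589 (+).
Hormad1: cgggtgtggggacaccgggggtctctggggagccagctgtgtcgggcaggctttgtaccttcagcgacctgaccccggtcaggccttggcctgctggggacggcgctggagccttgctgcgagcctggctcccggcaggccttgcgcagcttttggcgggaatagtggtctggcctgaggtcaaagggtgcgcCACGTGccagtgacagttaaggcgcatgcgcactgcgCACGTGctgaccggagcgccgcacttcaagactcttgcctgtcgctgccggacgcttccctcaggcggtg
Stag3: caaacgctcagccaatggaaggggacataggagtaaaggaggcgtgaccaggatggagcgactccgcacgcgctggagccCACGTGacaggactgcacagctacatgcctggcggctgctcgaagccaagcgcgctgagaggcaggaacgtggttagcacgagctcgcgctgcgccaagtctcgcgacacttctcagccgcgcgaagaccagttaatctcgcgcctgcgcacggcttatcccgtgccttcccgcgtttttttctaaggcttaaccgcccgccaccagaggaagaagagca
Sycp3: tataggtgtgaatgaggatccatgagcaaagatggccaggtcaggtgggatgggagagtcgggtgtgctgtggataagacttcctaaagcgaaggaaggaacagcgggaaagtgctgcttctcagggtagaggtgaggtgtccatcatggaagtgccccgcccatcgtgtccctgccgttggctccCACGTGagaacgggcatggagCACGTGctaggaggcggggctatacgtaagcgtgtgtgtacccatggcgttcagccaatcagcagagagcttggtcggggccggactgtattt
Dazl: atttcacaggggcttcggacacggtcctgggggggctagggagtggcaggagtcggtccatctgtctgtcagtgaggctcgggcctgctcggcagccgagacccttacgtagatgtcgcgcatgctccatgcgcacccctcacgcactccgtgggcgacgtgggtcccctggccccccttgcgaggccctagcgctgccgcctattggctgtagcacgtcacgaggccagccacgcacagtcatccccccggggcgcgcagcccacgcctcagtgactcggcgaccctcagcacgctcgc
Meox2: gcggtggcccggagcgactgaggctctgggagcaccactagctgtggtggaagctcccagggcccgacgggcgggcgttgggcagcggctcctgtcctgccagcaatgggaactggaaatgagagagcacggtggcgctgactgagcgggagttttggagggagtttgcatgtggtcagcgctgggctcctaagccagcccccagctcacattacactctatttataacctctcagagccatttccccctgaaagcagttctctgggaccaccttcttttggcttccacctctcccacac
The E-box occurred 2 times in the Hormad1 window, 1 time in Stag3 and 2 times in Sycp3, and 0 times in Dazl and Meox2. These windows held 24, 30, 15, 28 and 12 CG pairs in that order.

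The late DOX arrays differed widely, and more genes were lower than higher in flox/- cells. Of 13044 genes, 532 were at least 2-fold higher in flox/- day 8 than in WT day 11 (4.08%) and 1348 at least 2-fold lower (10.3%). Between the iPSC arrays 245 were higher (1.88%) and 417 lower (3.2%) in flox/-. Counts of gene lists and families below are to be read beside these shares. For scale, genes at least 2-fold apart either way were 538 in the MEF pair (4.12%), 1678 in the day 4 pair (12.9%) and 4147 between flox/- day 8 and WT day 8 (31.8%). The median difference over all genes was -0.025 in the late DOX pair and 0.002 in the iPSC pair (log2). Across genes, which are not independent replicates, the differences of both pairs correlated with a Pearson r of 0.567. No array is shared between these pairs.

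Most late differences pointed the same way in iPSC. Of the 532 genes higher in flox/- day 8, 426 were also higher in flox/- iPSC by any amount (80.1%), and of the 1348 lower genes 1089 were also lower (80.8%). Genes were then sorted by the size of the iPSC difference. Those at least 2-fold apart the same way in iPSC are called shared with iPSC: 124 of the higher genes (23.3%) and 314 of the lower (23.3%). Those under 1.41-fold in iPSC (0.5 on the log2 scale), and with late and iPSC differences at least 1 apart, are called DOX pair alone: 184 of the higher (34.6%) and 479 of the lower (35.5%). A further 217 (40.8%) and 543 (40.3%) lay between, and 7 (1.32%) and 12 (0.89%) were at least 2-fold apart the opposite way in iPSC. With WT ESC in place of WT iPSC the DOX pair alone class held 196 and 500 genes.

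**Figure D1:**
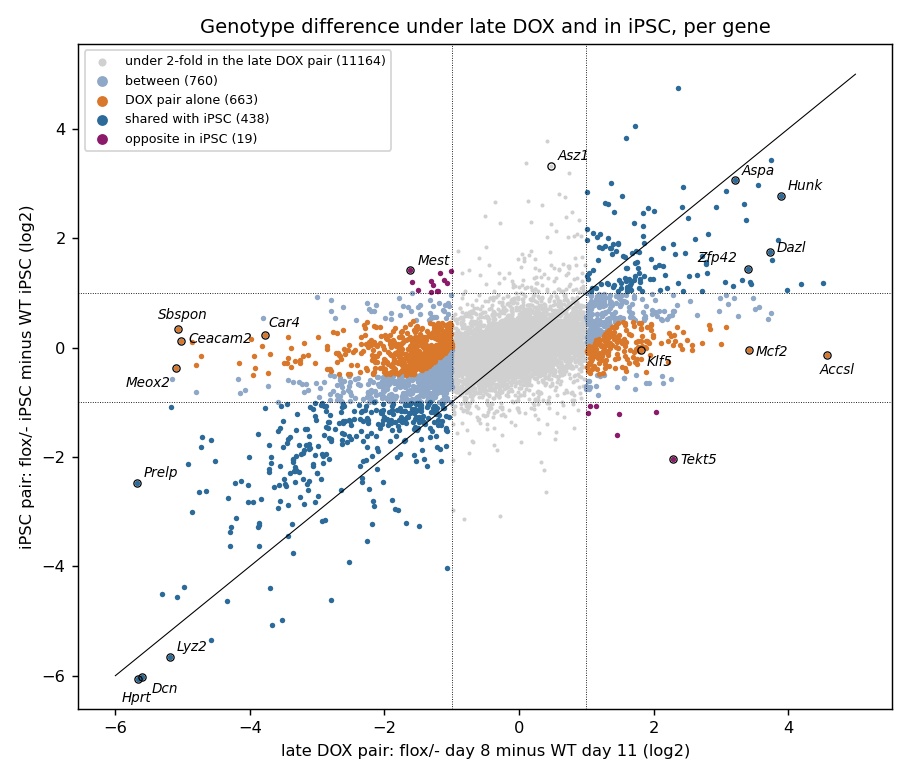
Each point is 1 of 13044 genes, coloured by class, with the flox/- day 8 minus WT day 11 difference on the horizontal axis and the flox/- iPSC minus WT iPSC difference on the vertical axis (log2, dotted lines at 2-fold, solid line where both are equal). Dcn, Hprt and Lyz2 lie near the solid line at the lower left, while Meox2, Sbspon, Ceacam2 and Accsl lie near 0 on the vertical axis.

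WT day 11 was further from its own iPSC than flox/- day 8 was. In WT, 772 genes were at least 2-fold higher at day 11 than in iPSC (5.92%) and 418 lower (3.2%). In flox/- cells, 113 were higher at day 8 than in iPSC (0.866%) and 237 lower (1.82%). Across genes, flox/- day 8 correlated with flox/- iPSC at 0.979, and WT day 11 with WT iPSC at 0.938. The difference of the differences (late pair minus iPSC pair) was at least 1 on the log2 scale, higher, for 461 genes (3.53%) and lower for 1009 (7.74%). Of the 1009, WT day 11 alone was at least 2-fold from its own iPSC in 550 (54.5%), flox/- day 8 alone in 98 (9.71%), both in 45 and neither in 316. Of the 461, the counts were 243 (52.7%), 33 (7.16%), 17 and 168. These genes were picked by the departures of both late arrays from their own iPSC. The split therefore follows in part from the counts above and is no separate support.

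Genes that change from MEF to iPSC in both genotypes showed the same order. Of 1624 genes at least 2-fold higher in iPSC than in MEF in both genotypes, 1534 lay within 2-fold of their own iPSC in flox/- day 8 (94.5%) and 1308 in WT day 11 (80.5%). Of 2000 genes at least 2-fold lower in iPSC, the counts were 1927 (96.4%) and 1534 (76.7%). The median gene had covered 96.6% of the way from MEF to iPSC in flox/- day 8 and 73.6% in WT day 11 among the former, and 103% and 71.7% among the latter. At day 4 the share within 2-fold was 63.4% in flox/- and 45.4% in WT for the former, and 64.5% and 38.0% for the latter.

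**Figure D2:**
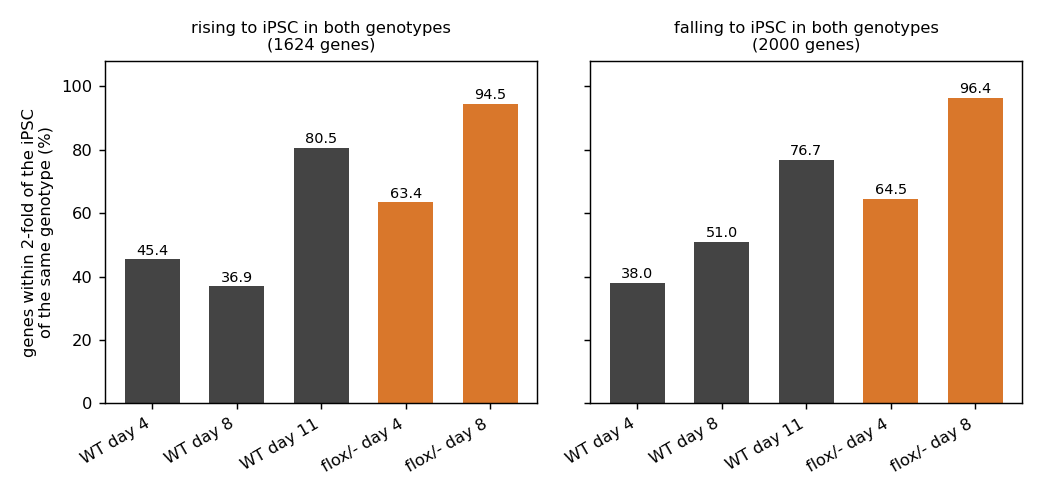
Bars give the percent of genes within 2-fold of the iPSC array of the same genotype, for WT (dark) and flox/- (orange) DOX arrays, with the 1624 genes higher in iPSC than in MEF in the left panel and the 2000 lower genes in the right. The flox/- day 8 bars reach 94.5% and 96.4%, and the WT day 11 bars 80.5% and 76.7%.

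Arrays outside the pair place the late differences further. Of the 1348 genes lower in flox/- day 8, 935 were at least 2-fold higher in WT MEF than in WT iPSC (69.4%, against 18.4% of all genes). Of the 532 higher genes, 334 were at least 2-fold lower in WT MEF than in WT iPSC (62.8%, against 15.9%). Already at day 4, 593 of the 1348 were at least 2-fold lower in flox/- than in WT (44%, against 8.04%) and 90 of the 532 higher (16.9%, against 4.82%). In MEF, before DOX, few were apart: 69 of the 1348 were lower in flox/- (5.12%, against 1.79%) and 19 of the 532 higher (3.57%, against 2.33%). Between -/- ESC and WT ESC, lines that are not in the pair, 309 of the 1348 were lower (22.9%, against 6.06%) and 85 of the 532 higher (16%, against 3.88%).

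Mbd3 and its NuRD partners were close in the pair. Mbd3 was 9.49 in WT day 11 and 8.85 in flox/- day 8 (difference -0.64), and 9.21 and 8.73 in the iPSC arrays (-0.48). The MEF arrays read 9.20 (WT), 8.92 (flox/-) and 8.15 (-/-), and the -/- ESC array was lowest at 6.73. Whether the probe set lies inside the deleted segment is not given in the sources used here, so it checks the label in part only. Of 15 NuRD genes, 0 were at least 2-fold apart in the late pair and 1 in the iPSC pair, Hdac1, a histone deacetylase (-1.07 in iPSC, -0.75 late). The list had a median of -0.09 late. Chd4, the remodelling ATPase, was 10.98 in WT day 11 and 10.78 in flox/- day 8.

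Of the 4 reprogramming factors, Myc alone was at least 2-fold apart. WT day 11 and flox/- day 8 read 11.97 and 12.12 for Pou5f1 (Oct4), 11.91 and 12.46 for Sox2, and 9.51 and 10.46 for Klf4. Myc, a growth regulator, was 10.26 in WT day 11 and 8.21 in flox/- day 8, 4.15-fold lower, with 7.97 in WT iPSC and 8.18 in flox/- iPSC. WT day 4 (10.86) and WT day 8 (11.99) were higher still, and flox/- day 4 (6.88) was the lowest of all 12 arrays. Whether the probe set reads the transgene was not tested.

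Fibroblast and extracellular matrix genes were lower in flox/- day 8, most of them by far more than 2-fold. Of 37 kept, 31 were at least 2-fold lower in flox/- day 8 and 0 higher, with a median of -3.27 (all genes -0.025). In iPSC 25 were lower and 0 higher, with a median of -1.78. In bulk cultures fewer cells of a type and less RNA per cell cannot be told apart. The mean log2 signal of the list in WT cells was 11.29 for MEF, 10.70 for day 4 and 8.42 for day 8. It was 9.62 for day 11, 8.79 for iPSC and 8.47 for ESC, so WT day 8 was the lowest of the WT arrays. The flox/- means were 11.49 for MEF, 8.89 for day 4, 6.73 for day 8 and 6.76 for iPSC, so that flox/- day 8 stood at its own iPSC and WT day 11 above its own.

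Decorin (Dcn), a small proteoglycan that binds collagen, showed the shared pattern. Dcn across WT MEF, WT days 4, 8 and 11, WT iPSC and WT ESC read 11.53, 11.19, 12.48, 11.62, 11.05 and 6.33. Across flox/- MEF, days 4 and 8 and iPSC it read 11.99, 9.96, 6.0 and 5.03. All WT arrays but ESC were high, and flox/- was low at day 8 and in iPSC. Dcn was 48.9-fold lower in flox/- day 8 than in WT day 11, and its iPSC difference was -6.02. Lumican (Lum), a related proteoglycan, was 9.90 in WT day 11, 4.59 in flox/- day 8, 8.91 in WT iPSC and 4.39 in flox/- iPSC. The late difference of Lum was -5.31 and the iPSC difference -4.51. Thbs2, a matrix glycoprotein, and Postn, the matrix protein periostin, behaved alike in both pairs. Their late differences were -5.08 and -4.59 and their iPSC differences -4.55 and -5.35. In WT day 8, Lum (4.80), Thbs2 (6.88) and Postn (5.73) lay far below WT day 11, unlike Dcn. WT ESC had Lum at 4.36, Thbs2 at 8.96 and Postn at 9.37, so of these genes Dcn and Lum were low in WT ESC too.

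A smaller set of mesenchymal genes stood apart under DOX alone. Meox2 across WT MEF, WT days 4, 8 and 11, WT iPSC and WT ESC read 8.67, 9.97, 6.24, 9.67, 5.13 and 4.98. Across flox/- MEF, days 4 and 8 and iPSC it read 9.59, 8.17, 4.57 and 4.76, with 8.26 for -/- MEF and 4.75 for -/- ESC. The 4 pluripotent arrays lay between 4.75 and 5.13, and WT day 11 lay with the MEF arrays. Meox2 was 34.2-fold lower in flox/- day 8 (late difference -5.10, iPSC difference -0.37). Fmod, another small proteoglycan, was 8.38 in WT day 11 and 4.88 in flox/- day 8, with an iPSC difference of -0.28. Twist1, a mesenchymal transcription factor, differed by -1.69 late and -0.11 in iPSC. Outside the list, Cd34, a surface protein of progenitor and stromal cells, was 11.42 in WT day 11, 6.25 in flox/- day 8, 7.73 in WT iPSC and 6.64 in flox/- iPSC. Sbspon, a matrix protein with a thrombospondin domain, was 9.67, 4.60, 4.58 and 4.92 in the same order. Prelp, a proteoglycan, had the lowest late difference of the 13044 genes, 51.4-fold, with 11.34 in WT day 11, 5.65 in flox/- day 8 and an iPSC difference of -2.47. Twist1 apart, WT day 11 was at least 2-fold above its own iPSC in each of these genes and flox/- day 8 was not. Cd34 and Prelp were 2-fold apart in iPSC as well. Vimentin (Vim), the filament of mesenchymal cells, was 13.00 and 12.05 late, under 2-fold apart, and fibronectin (Fn1) 12.68 and 12.71.

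**Figure D3:**
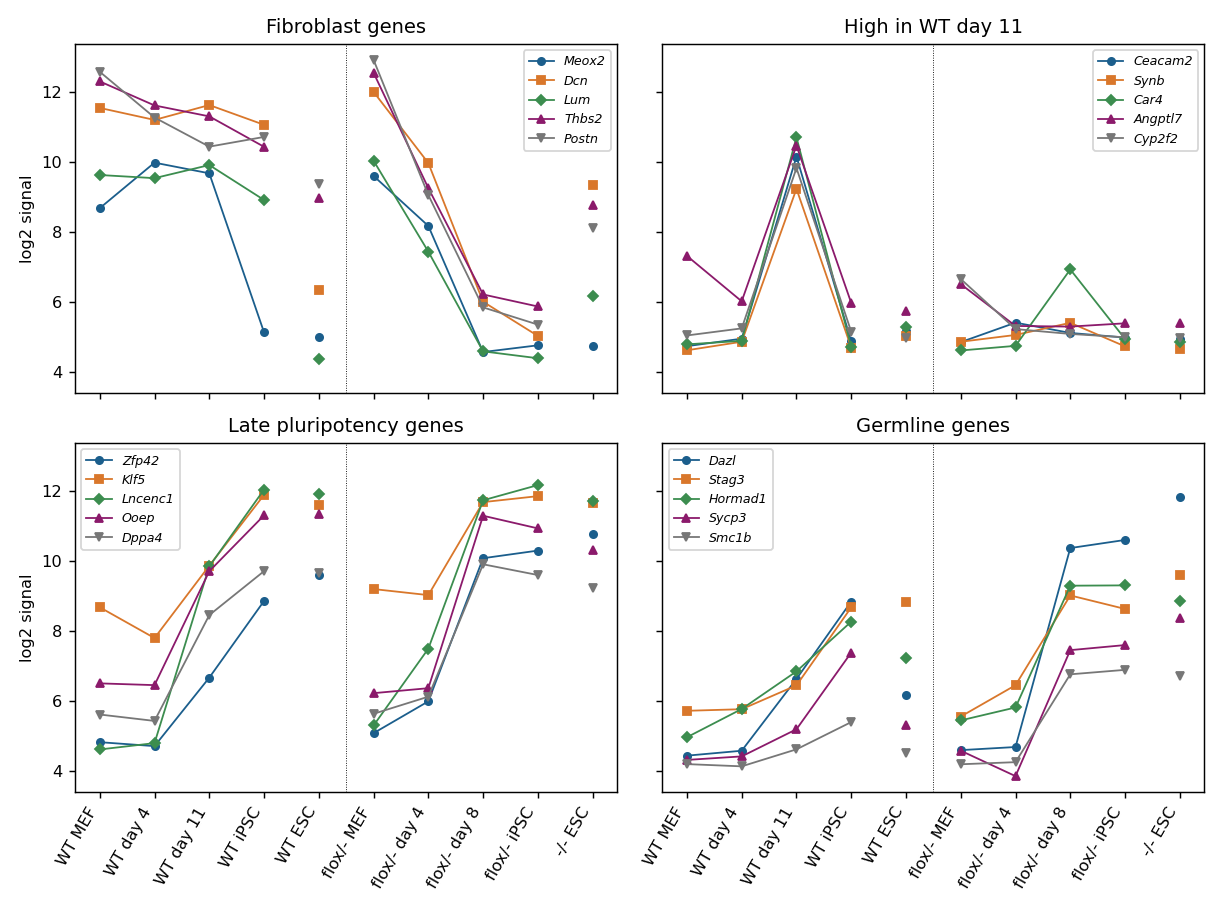
Points are log2 signals of 5 genes a panel on 10 arrays (WT day 8 and -/- MEF are not drawn), WT left and Mbd3-mutated right of the dotted line, with lines joining MEF, DOX and iPSC of a genotype. WT day 11 holds Meox2 at 9.67 with the MEF arrays, is the only array drawn with Ceacam2 above 5.41, and has the pluripotency and germline genes lower than flox/- day 8.

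TGF-beta and contractile genes followed. Of 26, 16 were at least 2-fold lower and 1 higher in flox/- day 8, with a median of -1.41. In iPSC 6 were lower and 1 higher, with a median of -0.33. Tgfbi, a secreted matrix protein induced by TGF-beta, was 11.15 in WT day 11, 6.99 in flox/- day 8, 8.80 in WT iPSC and 8.52 in flox/- iPSC. Smooth muscle actins were lower too. Actg2 had a difference of -3.44 and Acta2 of -2.83. The ligand gene Tgfb3 differed by -3.04 late and by -2.82 in iPSC, and the receptor gene Tgfbr2 by -2.52 and -0.63. Smad7, an inhibitor of the pathway, was the member that was higher (7.16 in WT day 11 and 9.35 in flox/- day 8). The yardstick decides how the list compares with iPSC. The median difference of differences was -0.62 with WT iPSC and 0.99 with WT ESC, in which Actg2 was 10.86 and Myl9 11.79.

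Macrophage genes, which WT MEF held in plenty, were mostly low in the pair. Of 21, 4 were at least 2-fold lower and 2 higher late, and 6 lower and 0 higher in iPSC. Lyz2, the lysozyme of macrophages, was 9.76 in WT day 11, 4.57 in flox/- day 8, 10.32 in WT iPSC and 4.67 in flox/- iPSC. The complement gene C1qb was 7.09, 5.24, 8.05 and 5.09 in the same order, against 11.56 in WT MEF. Ptprc (CD45) and Itgam (CD11b), which define these cells, were under the array median of 6.31 in all 4 arrays, while Cd68 and Laptm5 were above it in all 4. The mean of the list was 6.27 in WT day 11, 5.62 in flox/- day 8, 6.53 in WT iPSC and 5.62 in flox/- iPSC. The part of such cells in other differences was not tested.

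Some genes were higher in WT day 11 than on the other arrays. Against all 11 other arrays, 31 of 13044 genes were at least 2-fold higher in WT day 11, and 10 genes in flox/- day 8. Leaving out the WT day 8 array, 47 genes were so in WT day 11. The remaining arrays were not counted in this way. Genes were kept if above the array median on at least 1 array, so some, such as Ceacam2, were kept through WT day 11 alone. The flox/- day 8 array also lay close to flox/- iPSC (r 0.979), so these counts cannot be compared between arrays. Ceacam2, a cell adhesion gene, read 4.74, 4.95, 5.37, 10.15, 4.87 and 5.16 across WT MEF, WT days 4, 8 and 11, WT iPSC and WT ESC. The 4 flox/- arrays lay between 4.85 and 5.41, and the -/- arrays at 4.99 (MEF) and 4.93 (ESC). WT day 11 alone was high. Ceacam2 was 32.7-fold lower in flox/- day 8, with an iPSC difference of 0.11. Car4, a membrane carbonic anhydrase, was 10.69 in WT day 11 and 6.93 in flox/- day 8, and between 4.61 and 5.28 on the other 10 arrays. Cyp2f2, a cytochrome P450, was 9.82 and 5.09, and Angptl7, a secreted angiopoietin-like protein, 10.46 and 5.30, in WT day 11 and flox/- day 8. Not all such genes were low in MEF, since Angptl7 was 7.31 in WT MEF and 7.70 in -/- MEF, against 5.97 in WT iPSC.

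Some placental genes were among those high in WT day 11. Of 15 trophoblast genes, 5 were at least 2-fold lower and 2 higher in flox/- day 8, with a median of -0.64 (0.03 in iPSC, where 1 was higher and 0 lower). Plac1, a placental gene, was 8.48 in WT day 11, 6.99 in flox/- day 8, 4.78 in WT iPSC and 4.91 in flox/- iPSC, so both DOX arrays lay above both iPSC arrays. The homeobox genes Rhox6 and Rhox9 were 9.51 and 9.77 in WT day 11 and 7.97 and 8.18 in flox/- day 8. Tfap2c, a transcription factor of trophoblast and germ cells, was 9.21 and 7.71. Synb, the placental cell fusion gene syncytin B, was chosen after its values were seen. WT day 11 had it at 9.23, flox/- day 8 at 5.40 and the other 10 arrays at 5.06 or less. Elf5 and Hand1, defining factors of trophoblast, were low in both (4.96 and 4.86 for Elf5, 5.55 and 5.58 for Hand1). Eomes, which marks trophoblast and epiblast derivatives, ran the other way (6.25 and 7.81).

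Epithelial genes were lower in flox/- day 8 than in WT day 11 without a difference in E-cadherin. Of 28, 14 were at least 2-fold lower and 0 higher, with a median of -0.96, and in iPSC 6 were lower and 0 higher, with a median of -0.40. Cdh1 (E-cadherin) was 11.37 in WT day 11 and 11.19 in flox/- day 8. Esrp1, an epithelial splicing regulator, was 9.52 in WT day 11, 6.40 in flox/- day 8, 6.73 in WT iPSC and 4.88 in flox/- iPSC. The tight junction genes Cldn6 (11.82 and 9.56) and Cldn7 (9.29 and 6.96) were lower too. So was Rab25, a GTPase of epithelial vesicle traffic (9.19 and 7.16). In iPSC Cldn6, Cldn7 and Rab25 differed by -1.82, -1.34 and -0.66. The mean signal of the list was 9.63 in WT day 8, 9.28 in WT day 11, 8.28 in flox/- day 8, 8.03 in WT iPSC and 7.51 in flox/- iPSC. In both genotypes the late DOX array lay above its own iPSC.

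Interferon response genes were mostly lower. Of 18, 10 were at least 2-fold lower and 1 higher, with a median of -1.36, and in iPSC 4 were lower and 1 higher, with a median of -0.49. B2m, the light chain of MHC class I, was 12.09 in WT day 11, 9.53 in flox/- day 8, 11.79 in WT iPSC and 10.06 in flox/- iPSC. The antiviral genes Ifit1 (7.57 and 5.06) and Oasl2 (9.12 and 6.49) and Bst2, tetherin (10.13 and 7.62), were among the lower members. In iPSC these genes differed by -1.67, -1.57 and -0.82. Xaf1 was higher (7.72 and 9.32). The fibroblast markers, with means of 9.95 and 6.19, were lower along with this list, and their part in it was not tested.

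Some genes of glycolysis and lipid metabolism were lower in flox/- day 8. Of 35 on the list, 10 were at least 2-fold lower and 0 higher, with a median of -0.64, and in iPSC 2 were lower and 0 higher, with a median of -0.03. Bnip3, a mitophagy gene induced by hypoxia, was 10.76 in WT day 11, 7.58 in flox/- day 8, 9.34 in WT iPSC and 8.53 in flox/- iPSC. Egln3, an oxygen-sensing hydroxylase, was 9.62, 6.46, 8.35 and 7.68 in the same order. In both genes flox/- day 8 lay below each of the pluripotent arrays. The enzymes Pfkl, Ldha, Tpi1 and Pgk1 differed by -1.87, -1.74, -1.65 and -1.44 late and by -0.42 to -0.56 in iPSC. Genes of sterol synthesis were close, such as Hmgcs1 (-0.02) and Lss (-0.01), and the hexokinase gene Hk2 was 9.35 and 10.04.

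Signal-responsive genes were lower in part. Of 30 immediate early and stress genes, 6 were at least 2-fold lower and 0 higher late, and 0 either way in iPSC. Fos was 8.23 in WT day 11 and 6.50 in flox/- day 8, Jun 9.54 and 7.96, and Txnip, an inhibitor of thioredoxin, 11.49 and 8.94. In iPSC they differed by 0.76, -0.31 and -0.05. Egr1, another immediate early gene, was 7.21 and 7.34. Of 21 genes that respond to the LIF, Wnt and MEK arms of the medium, 3 were higher and 3 lower. The Wnt targets Axin2 (6.90 and 8.83) and Sp5 (5.37 and 7.28) were higher in flox/- day 8, where both lay above flox/- iPSC (7.35 and 5.68). Lgr5, a Wnt receptor component, was lower (8.40 and 5.26), as it was between WT iPSC and flox/- iPSC (7.54 and 4.93).

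Naive pluripotency factors were higher in flox/- day 8. Of 16, 7 were at least 2-fold higher and 0 lower, with a median of 0.89 (all genes -0.025). In iPSC 2 were higher and 0 lower, with a median of 0.11. Zfp42 (Rex1), a zinc finger protein of naive cells, read 4.83, 4.71, 4.70, 6.67, 8.85 and 9.60 across WT MEF, WT days 4, 8 and 11, WT iPSC and WT ESC. Across flox/- MEF, days 4 and 8 and iPSC it read 5.08, 5.99, 10.07 and 10.29, with 10.76 for -/- ESC. WT day 11 lay between the MEF and the pluripotent arrays and flox/- day 8 among the latter. Zfp42 was 10.6-fold higher in flox/- day 8 and 2.71-fold higher in flox/- iPSC. Klf5, a transcription factor, was 9.86 in WT day 11 and 11.67 in flox/- day 8, with 11.88 in WT iPSC and 11.84 in flox/- iPSC. Gbx2 (6.49 and 8.27), Prdm14 (8.21 and 9.71), Tbx3 (9.36 and 10.84), Nr5a2 (9.38 and 10.51) and Esrrb (10.36 and 11.45), all transcription regulators of the naive state, were the others. Nanog was close, at 12.31 and 12.55, as were Sall4 (10.95 and 11.18) and Klf2 (9.57 and 9.67).

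The same split ran through the other embryonic markers. Of 24, 7 were at least 2-fold higher and 2 lower, with a median of 0.23. Lncenc1, a noncoding RNA of naive cells, was 9.84 in WT day 11, 11.73 in flox/- day 8, 12.03 in WT iPSC and 12.16 in flox/- iPSC. Jam2, a junctional adhesion molecule, was 10.33, 12.19, 11.83 and 12.36, and Ooep, an oocyte and embryo protein, 9.70, 11.29, 11.30 and 10.92 in the same order. Dppa5a (12.47 and 12.99), Utf1 (11.39 and 11.58) and Fgf4 (10.42 and 10.33) were under 2-fold apart in the late pair. Dppa3 (Stella), known from oocytes and germ cells, and Apela, a secreted peptide of the embryo, were the lower members. Apela was 11.99 in WT day 11 but 10.30 in flox/- day 8, with 11.65 and 10.66 in the iPSC arrays. Dppa3 was 8.13 in WT day 11 and between 4.27 and 5.52 on the other 11 arrays, flox/- day 8 at 4.78 included. Nodal, a ligand that is expressed in pluripotent cells, was 8.15 in WT day 11 and 9.87 in flox/- day 8.

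The largest late differences upward were in genes that WT day 11 held below the level of WT iPSC. Accsl was 4.96 in WT day 11 and 9.53 in flox/- day 8, with 8.72 in WT iPSC, 9.43 in WT ESC, 8.58 in flox/- iPSC and 5.18 in -/- ESC. It lay between 4.19 and 4.67 in the 3 MEF arrays, both day 4 arrays and WT day 8. WT day 11 was still at the MEF level, and Accsl was 23.8-fold higher in flox/- day 8 (iPSC difference -0.14). Mcf2, a guanine nucleotide exchange factor, was 5.79 in WT day 11 and 9.21 in flox/- day 8, with 9.47 and 9.43 in the iPSC arrays. Pramel6, of the PRAME family, was 4.69, 8.44, 8.00 and 8.63 in the order WT day 11, flox/- day 8, WT iPSC and flox/- iPSC. Zfp980 (7.57, 11.27, 10.68 and 11.20) and Zfp640 (7.75, 11.31, 10.55 and 11.30), zinc finger genes, lay in WT day 11 between the MEF (4.11 and 4.03 in WT) and iPSC levels. Other genes of this kind were H2-M5 of the MHC class Ib (6.45, 9.45, 8.99 and 9.06), Nexmif (4.70, 8.69, 6.53 and 7.58) and the dynein gene Dnah8 (6.14, 9.89, 7.93 and 9.54). In Nexmif and Dnah8 flox/- was higher in iPSC too, by 1.04 and 1.60.

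Germline genes were higher in flox/- in both stages. Of 23 kept, 11 were at least 2-fold higher and 1 lower in flox/- day 8, with a median of 0.91, and 11 were higher and 2 lower in flox/- iPSC, with a median of 0.83. Dazl, an RNA-binding protein of germ cells, read 4.44, 4.58, 4.55, 6.63, 8.84 and 6.17 across WT MEF, WT days 4, 8 and 11, WT iPSC and WT ESC. Across flox/- MEF, days 4 and 8 and iPSC it read 4.60, 4.69, 10.36 and 10.60, with 11.82 for -/- ESC. Dazl was 13.3-fold higher in flox/- day 8 and 3.38-fold higher in flox/- iPSC, and -/- ESC, flox/- iPSC and flox/- day 8 were the highest of the 12 arrays. Stag3, a cohesin subunit of meiosis, was 6.45 in WT day 11, 9.01 in flox/- day 8, 8.67 in WT iPSC and 8.63 in flox/- iPSC, a difference in the DOX pair alone. Hormad1, a protein of meiotic chromosome axes, was 6.85, 9.29, 8.27 and 9.30, and Sycp3, of the synaptonemal complex, 5.20, 7.45, 7.38 and 7.60 in the same order. Asz1, a piRNA pathway gene, was low in both late arrays (4.12 and 4.60) and differed by 3.33 in iPSC. Tdrd12, of the same pathway, was the lower member (8.61 and 6.81). With WT ESC as the yardstick the median difference of differences was -0.54 for this list, against 0.22 with WT iPSC.

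The E-box was more frequent in these promoters than in promoters at large. Searched on both strands, which read alike for CACGTG, it was in 2349 of 32851 RefSeq promoter windows (7.15%). Of the 23 kept germline genes 21 had a window, and 12 of their 25 windows held it (48.0%). Among the 12 germline genes at least 2-fold apart in the late pair, 8 of 15 windows held it (53.3%). Of the 37 fibroblast genes 22 had a window, and 0 of their 27 windows held it. The octamer ATGCAAAT, searched on both strands, was in 1.74% of all windows and in 1 of the 25 germline windows. A match describes the letters of the window and no binding was measured. Several windows belong to the same gene, and the germline genes were listed as methylation-sensitive, with a median of 21 CG pairs a window against 7 over all windows.

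**Figure D4:**
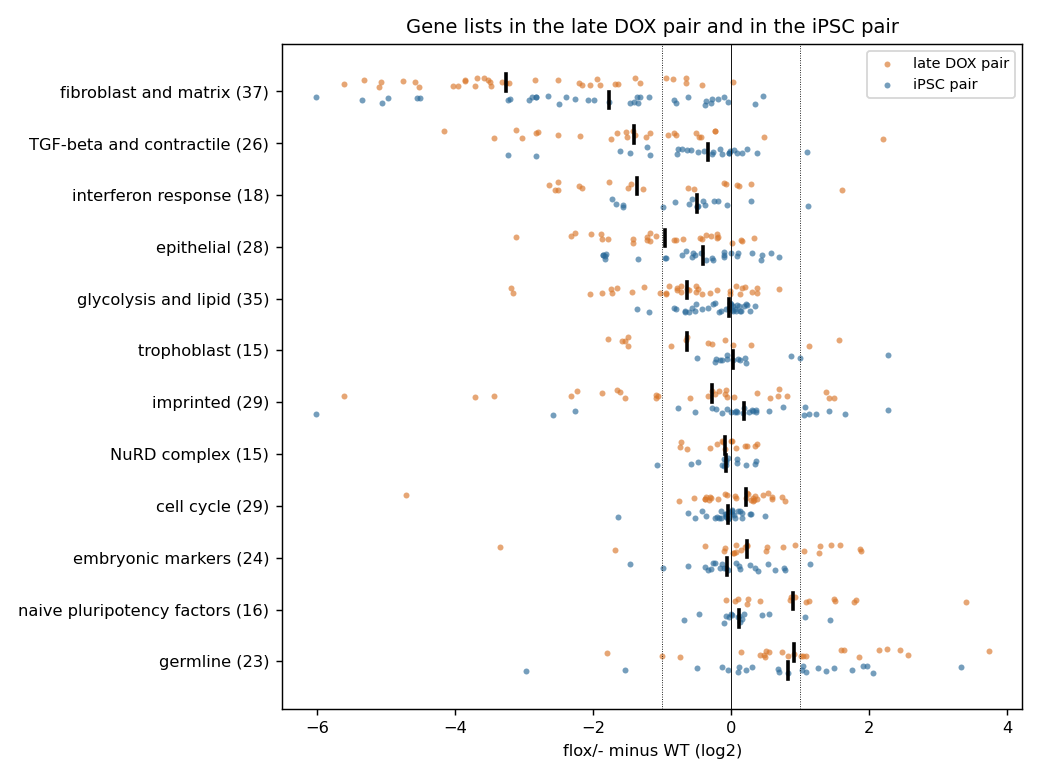
Each point is a gene of a list (number kept in brackets), placed by its flox/- minus WT difference in log2 units in the late DOX pair (orange) or the iPSC pair (blue), with black bars for medians and dotted lines at 2-fold. The fibroblast medians lie at -3.27 and -1.78, the naive pluripotency medians at 0.89 and 0.11, and the germline medians at 0.91 and 0.83.

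Some of the largest differences were about as large in iPSC. Hprt, the purine salvage enzyme, was 10.81 in WT day 11, 5.15 in flox/- day 8, 10.96 in WT iPSC and 4.90 in flox/- iPSC. It was between 10.32 and 11.17 in all 6 WT arrays, 8.46 in flox/- MEF, 6.51 at flox/- day 4, 5.33 in -/- MEF and 5.84 in -/- ESC. Every Mbd3-mutated array lay below every WT array, and the late and iPSC differences were -5.66 and -6.05. On the higher side, Hunk, a protein kinase gene, was 6.76 in WT day 11, 10.65 in flox/- day 8, 7.62 in WT iPSC and 10.40 in flox/- iPSC. WT ESC had Hunk at 9.65. Prex2, a Rac exchange factor, differed by 3.08 late and 2.86 in iPSC, Aspa, aspartoacylase, by 3.21 and 3.07, and the sialyltransferase gene St8sia1 by 3.55 and 2.98. In MEF few such genes were apart, though a larger share than of all genes. Of 314 lower genes shared with iPSC, 16 were at least 2-fold lower in flox/- MEF (5.1%, against 1.79% of all genes). At day 4 it was 213 (67.8%, against 8.04%). Of 124 higher genes shared with iPSC, 8 were at least 2-fold higher in flox/- MEF (6.45%, against 2.33%), and 17 at day 4 (13.7%, against 4.82%).

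Imprinted genes differed both ways. Of 29, 12 were at least 2-fold lower and 3 higher in flox/- day 8, while in iPSC 3 were lower and 7 higher. Grb10, a growth factor receptor adaptor, was 11.98 in WT day 11, 8.26 in flox/- day 8, 11.68 in WT iPSC and 9.41 in flox/- iPSC. Zim1, a zinc finger gene, was 9.10 in WT day 11 but 5.66 in flox/- day 8. It was also 10.69 in WT MEF but 5.63 in flox/- MEF. WT day 11 and WT MEF stood apart from the iPSC arrays (5.47 and 5.66). WT days 4 and 8, which lie between them in time, were far lower (6.29 and 5.57). Dlk1, a membrane protein of fetal tissues, was 9.43, 7.11, 7.08 and 7.02 in the order used for Grb10. The noncoding RNAs Meg3 and Rian, of the same locus as Dlk1, were higher in flox/- day 8 by 1.41 and 1.49. Dcn is on this list as well as on the fibroblast list.

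The remaining lists are given by their counts, to be read beside late shares over all genes of 4.08% higher and 10.3% lower. The counts of polycomb and Hox genes lay near these shares, and several lists are small. Of 29 cell cycle genes only the cyclin gene Ccnd2 was 2-fold apart (12.06 in WT day 11, 7.34 in flox/- day 8, 10.18 in WT iPSC and 8.55 in flox/- iPSC), and the other members lay between -0.76 and 0.78. Among 11 genes of DNA methylation, Tet2 was higher (10.34 and 11.38) and Tet3 lower (7.41 and 6.20), and the methyltransferase Dnmt1 was 10.93 and 11.10. Of 25 polycomb genes 1 was higher and 2 lower, and of 32 Hox genes 2 and 4, with Hoxc12 at 5.14 in WT day 11 and 8.59 in flox/- day 8. Of 18 senescence and p53 genes 0 were higher and 5 lower, among them Igfbp3 (10.99 and 7.34) and the cyclin-dependent kinase inhibitor Cdkn2b (8.38 and 6.83). The median of that list was -0.14 late and its median difference of differences -0.67. Of 13 primitive endoderm genes 1 was higher and 4 lower, led by Dab2 (-3.39). Dab2 has 2 probe sets, and the other one differed by only -0.20. The defining factors Gata4 (6.50 and 6.29) and Gata6 (6.77 and 6.87) were close. Of 12 epiblast and early lineage genes 2 were higher and 1 lower, of 8 endothelial genes 2 and 2, and of 11 neural genes 2 and 2. None of 15 keratinocyte or 6 skeletal muscle genes was 2-fold apart. Of 4 genes of the 2-cell stage Zim1 was the lower member and 0 were higher. Of 4 sex-linked genes 2 were higher and 0 lower late, with a median of 1.14. In iPSC 2 of them were higher and 1 lower, with a median of 1.69.

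The late levels were set against the range of the pluripotent arrays. The 4 pluripotent arrays (2 iPSC and 2 ESC) gave each gene a lowest and a highest value. The genes were picked by the difference between flox/- day 8 and WT day 11, which in part fixes the side on which each array lies. The shares over all genes were not counted, so the values only describe the picked genes. Of the 532 genes higher in flox/- day 8, flox/- day 8 lay inside this range in 271 (50.9%) and above it in 243 (45.7%), and WT day 11 lay below it in 405 (76.1%). Of the 1348 lower genes, flox/- day 8 lay inside it in 603 (44.7%) and below it in 686 (50.9%), and WT day 11 lay above it in 1122 (83.2%). In 59 of the 1348 (4.38%) and 22 of the 532 (4.14%) the lower signal of the pair was under the lower quartile of the arrays (4.68), where background limits the fold.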

How the data were processed

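RNA of 12 mouse cultures was measured on Affymetrix arrays, 1 per group. The values deposited by the authors are log2 signals, from 3.11 to 13.99, for 35512 probe sets. The summary, normalization and build behind them are not given in the sources used here. Per the labels' protocols, RNA was taken with TRIzol and labelled with biotin by a 3' IVT kit.

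Array medians differed by 0.122, above a limit of 0.1, so values were quantile normalized. Probe sets with 1 symbol (21789) gave 19938 genes, taking the probe set with the highest mean. Genes above the array median on at least 1 array were kept (13044). A gene counted as apart at a log2 difference of at least 1. The number of arrays limits the precision, and no test was possible between single arrays. Python 3.11.15, numpy 2.4.6, pandas 2.3.3 and matplotlib 3.10.9 were used. The counting and sorting steps were run on simulated arrays with large planted shifts and little noise. Such a run checks the code and cannot tell how reliable the counts and classes are.

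The comparison and the 28 gene lists (657 entries, 530 kept) were chosen with earlier results of these data known. Named genes were the 10 largest late differences and differences of differences each way, the 8 largest shared with iPSC each way, up to 5 opposite ones each way, up to 4 of each list, Mbd3, Nanog and OSKM. Other list members are named from the complete lists. Promoter and miRNA sequences are from RefSeq (GRCm38.p6).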

Additional observations from a re-analysis of the deposited data

Results flagged for a closer look

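In 19 genes (7 higher and 12 lower in flox/- day 8) the genotype difference ran the opposite way in iPSC, at least 2-fold in both. The 10 given here are the 5 largest each way, with Vmn2r pseudogenes left out by the rule for named genes. Whether these differences differ was not tested, since each rests on single arrays. The values are the difference of differences on the log2 scale, and a positive value means that flox/- was higher under DOX and lower in iPSC. Tekt5, a tektin of cilia and sperm tails, had 4.32, with 5.69 in WT day 11, 7.98 in flox/- day 8, 8.04 in WT iPSC and 6.01 in flox/- iPSC. Cspg4b had 3.05, the laminin receptor gene Bcam 2.69, the ectoenzyme gene Bst1 2.23 and the gonadal transcription factor gene Dmrt1 2.20. In Cspg4b, Bcam, Bst1 and Dmrt1 it was WT day 11 alone that was at least 2-fold from its own iPSC.

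The imprinted gene Mest had -3.03, with 9.90 in WT day 11, 8.28 in flox/- day 8, 9.91 in WT iPSC and 11.33 in flox/- iPSC. Here flox/- day 8 alone was at least 2-fold from its own iPSC. Ano1, a calcium-activated chloride channel gene, had -2.78, Tmem150a -2.55, Dglucy -2.54 and Ccdc3 -2.53. WT day 11 was the array apart in Ano1, Tmem150a and Dglucy, and both arrays were in Ccdc3.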

How the results depend on the processing

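Of 80 alternative values of the gene counts, 68 stayed within 1.5 times the main count. With a log2 threshold of 1.5, 231 genes were higher and 718 lower in flox/- day 8, 105 and 189 in flox/- iPSC, 43 and 153 were shared with iPSC, 60 and 193 were in the DOX pair alone, 172 and 431 differed between the pairs, and 330 (WT day 11) and 49 (flox/- day 8) had an array alone away from its own iPSC. With WT ESC in place of WT iPSC, chosen after seeing the data, the median difference of differences turned sign for germline (0.22 to -0.54), TGF-beta and contractile (-0.62 to 0.99), sex-linked (-0.55 to 1.17), macrophage (0.25 to -0.28) and skeletal muscle genes (-0.23 to 0.39), and went from -0.87 to -0.27 for trophoblast genes. Without the filter on dim genes that of the 2-cell genes went from -2.42 to -0.48. Of 645 values of named genes under 5 alternatives 643 moved by less than 0.522, the SD of the iPSC differences. With the mean of all probe sets, Uba1y became 1.47 and Dab2 -1.79. No paired analysis was possible because each group has 1 array, and no replicate could be left out.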

Other observations

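Glutathione transferase genes, which conjugate glutathione to toxins, were lower in flox/- day 8 as a family. This family was looked at after its values were seen. Of 18 kept, 13 were at least 2-fold lower and 2 higher, with a median of -1.39, while in iPSC 2 were lower and 1 higher, with a median of -0.24. Gstm5 was 9.76 in WT day 11, 6.32 in flox/- day 8, 7.21 in WT iPSC and 7.01 in flox/- iPSC. Gstk1 was 10.81, 8.01, 7.79 and 8.46 in the same order, and higher in WT day 11 than on the other 11 arrays. Gstm1, at 11.01, was also highest in WT day 11, and was 9.13 in flox/- day 8. Gstp3 (5.28 and 6.87) and Gsta3 (6.08 and 7.43) were the higher members. Members of this family are close copies, and the array may not separate them.

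Protocadherin genes, adhesion molecules of neural and other tissues, were lower as well (9 of 15, 0 higher), as were serpin protease inhibitor genes (8 of 15, 0 higher). In iPSC 2 protocadherin and 3 serpin genes were lower and 0 higher. Of 295 zinc finger genes named Zfp, 19 were higher and 7 lower late, against 1 and 4 in iPSC. Over all genes 4.08% were higher and 10.3% lower late, and 1.88% and 3.2% in iPSC.

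Of 98 genes kept with a microRNA locus symbol, 6 were higher and 6 lower late, the host transcript Mir100hg among the latter. Over all genes the shares were 4.08% higher and 10.3% lower, so these counts do not set the loci apart. These probe sets read the locus, and mature microRNAs were not measured. The mature sequences of 3 loci with large late differences are given here from RefSeq (GRCm38.p6), with the seed, bases 2 to 8, in capitals.
miR-181b-5p: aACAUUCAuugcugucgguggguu
miR-218-5p: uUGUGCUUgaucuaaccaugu
miR-130a-3p: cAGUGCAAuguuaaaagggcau
These 3 seeds differ. Mir130a was 4.83 in WT day 11 and 6.72 in flox/- day 8, the highest of the 12 arrays by 1.68. Mir218-1 was 8.11 in WT day 11, 6.28 in flox/- day 8, 7.15 in WT iPSC and 6.27 in flox/- iPSC, and 9.38 in WT MEF. Mir181b-1 was 6.34, 4.57, 5.58 and 4.48 in the same order, and 8.94 in WT MEF.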
